A study of Mus musculus with 10 samples.

Results

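Pattern recognition receptors are the germline-encoded sensors through which innate cells detect microbial and damage-associated molecules. The 39 genes described here were chosen by symbol from the 35725 gene rows of a table of read counts from mouse lung eosinophils, and comprise 19 genes of the Toll-like receptor pathway, 7 of the C-type lectin pathway, 8 of the inflammasome and 5 other cytosolic sensors and their adaptors. All 39 were found, each in 1 row, and all 39 passed the low-count filter of the test. The samples were 5 libraries from P2ry14-null mice, which lack a G protein-coupled receptor of UDP-glucose, and 5 from C57BL/6J wild-type mice (WT). All donors were male; the making of the P2ry14-null allele, its strain background and the age at collection were not stated in the sources used here, so an effect of background and one of the allele cannot be told apart. Both genotypes were sensitized through the oropharynx on 2 occasions with ovalbumin (50 µg) and a protease of Aspergillus oryzae (20 µg), and 7 days after the last of these they breathed a 1% ovalbumin aerosol. Eosinophils were sorted by flow cytometry from the lungs 16 h after the aerosol. No group without allergen was among the samples, so the levels below are those of challenged lungs in both genotypes.

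Toll-like receptors bind microbial lipids, proteins or nucleic acids at the cell surface or in endosomes and signal through the adaptors MyD88 and TRIF. C-type lectin receptors such as Mincle and Dectin-1 bind fungal and mycobacterial glycans and signal through the kinase Syk and the adaptor Card9, a route used by fungal products such as those of Aspergillus. Inflammasome sensors assemble with the adaptor ASC to activate caspase-1, which matures interleukin-1β and interleukin-18 and cleaves gasdermin D into a membrane pore.

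Total counts ran from 67161968 to 185124080 reads per library, and levels are given as counts per 1000000 reads (CPM) on library sizes scaled by the TMM method. P2ry14 itself, which checks the labels, had 211 ± 16.0 CPM in WT and 23.2 ± 1.02 CPM in P2ry14-null (SD, n = 5 each), with the lowest WT library at 190.4 and the highest P2ry14-null library at 24.2 CPM. The eosinophil markers Siglecf, Ccr3 and Il5ra were present in every library, with WT means of 1282, 1369 and 213 CPM. P2ry14-null library 2 stood apart in transcripts of other lung cells: its summed level of 10 dendritic cell and class II genes was 452 CPM against 98.2 to 169 in the other 9 libraries. In these sorted bulk samples, fewer cells of a type and less RNA per cell cannot be told apart.

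None of the 39 genes differed between the genotypes past the threshold (edgeR's quasi-likelihood test, Benjamini-Hochberg adjusted p under 0.05 over all 15586 genes tested; the adjusted p was 0.999 for each member). DESeq2 also called 0 of the 39. Over all genes tested, edgeR called 0.0385% and DESeq2 0.118%. At an unadjusted p under 0.05 edgeR had 3 members, Clec4e, Clec4d and Nlrc5, or 7.69% of the 39 beside 4.13% of all genes tested. All 3 were lower in P2ry14-null. Of all 15586 genes tested, 644 were at that p, and 416 of these were lower (2.67% of all tested). In DESeq2 the 3 members at that p were Clec4e, Clec4d and Clec4n, without Nlrc5, beside 2.89% of 25156 genes. That share is over more genes than in edgeR, because the low-count filter was not applied before DESeq2. In 0 of the 39 did all libraries of a genotype lie above or below all libraries of the other, against 0.648% of all genes tested. Fold changes below are log2 values of P2ry14-null minus WT with their SE, and intervals are 95% intervals of that fold change. The median over the 39 was -0.031, beside 0.0025 over all genes tested. Intervals lay within 1.5-fold in either direction for 33 of the 39 and within 2-fold for 38, the exception being Tlr1, and a p that misses the threshold does not show equal levels.

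**Figure D1:**
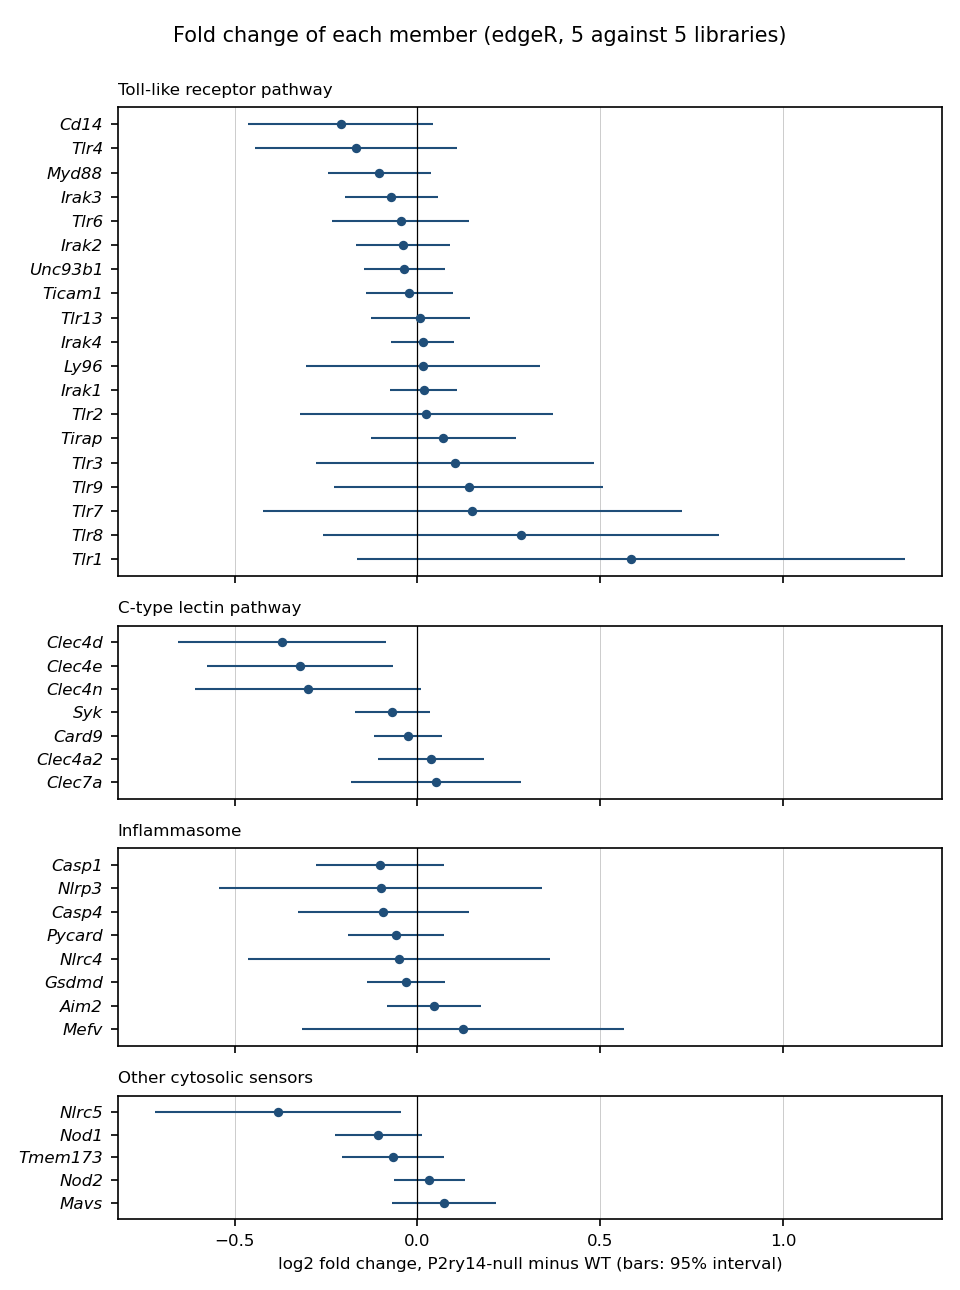
Log2 fold change of each of the 39 genes (horizontal axis, P2ry14-null minus WT; points, edgeR estimates from 5 against 5 libraries; bars, 95% intervals), in 4 panels by pathway. Most points lie close to 0, and the intervals of Clec4d, Clec4e and Nlrc5 end below 0 before adjustment for the number of genes.

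Levels of different genes are compared per kilobase of exon (CPM per kb), using the union of exons in GENCODE vM21, so a gene with long rarely used exons is placed too low. On this scale the order in WT was led by the kinase Syk at 122 ± 2.91 CPM per kb, the pore-forming protein gene Gsdmd at 109 ± 6.45, Clec4e at 68.3 ± 8.56, Tlr13 at 44.9 ± 2.68 and the adaptor Myd88 at 43.4 ± 4.69 (SD, n = 5). By their level over all 10 libraries, these 5 genes stood at percentiles from 91.9 to 97.4 of the 13039 tested genes with an exon length. The ranges of Tlr13, Myd88 and the inhibitory lectin gene Clec4a2 overlapped, so their order among themselves was not resolved. At the other end stood Tlr3 at 0.122 ± 0.0224, Tlr1 at 0.210 ± 0.0420 and the sensor gene Nlrc4 at 0.226 ± 0.0313 CPM per kb, between percentiles 13.8 and 19.5. The 39 genes thus spanned a wide range of levels, from 0.122 CPM per kb for Tlr3 to 122 for Syk, with Clec4e at 68.3 the highest receptor.

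**Figure D2:**
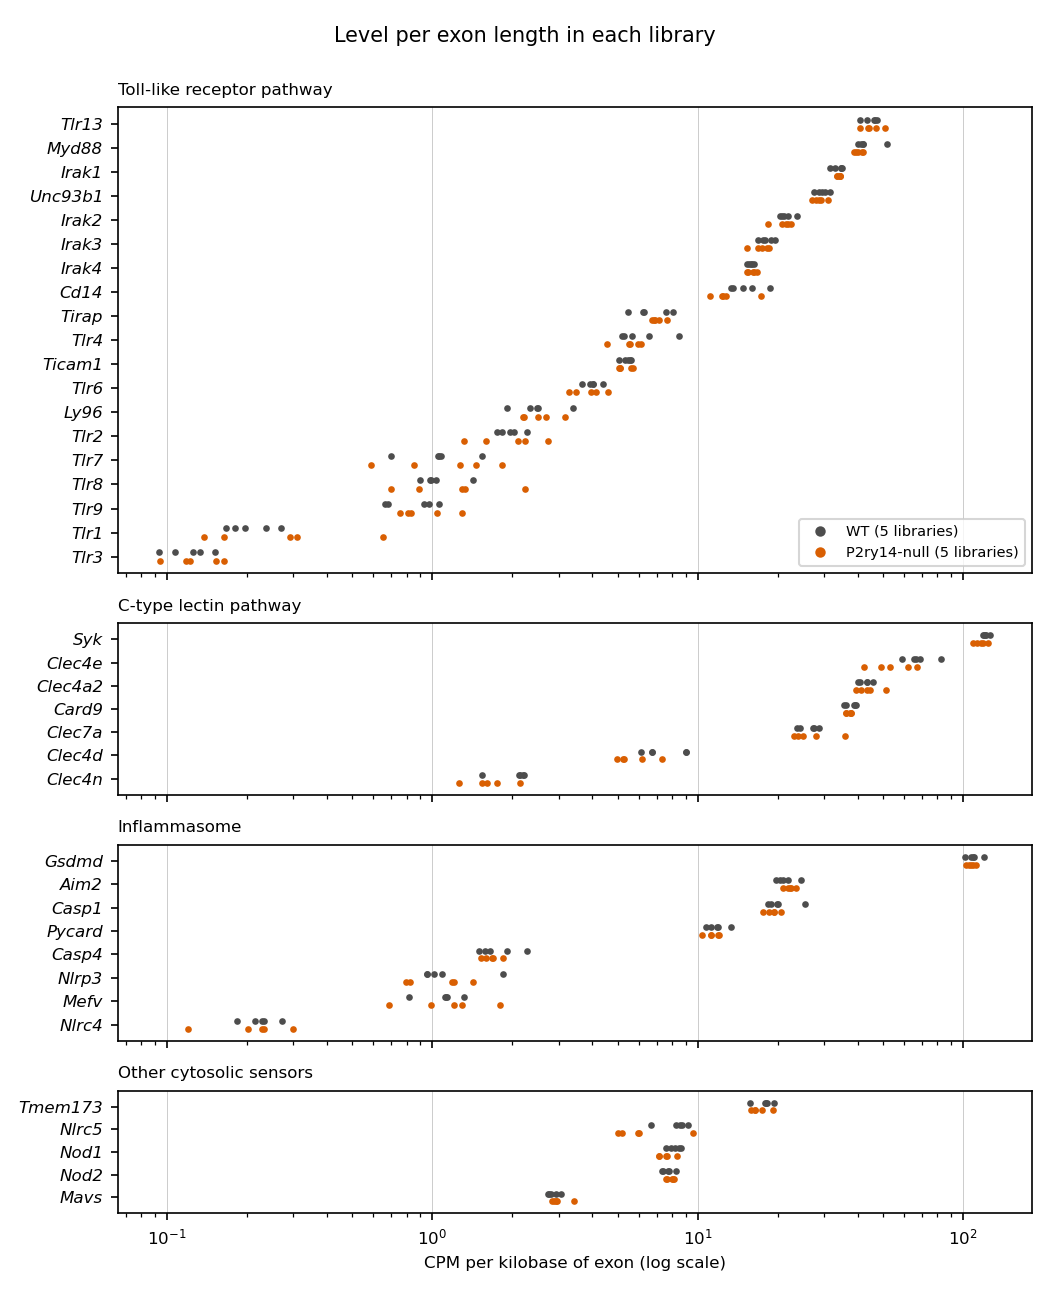
Level of each gene in every library as CPM per kilobase of exon (horizontal axis, log scale; grey, 5 WT libraries; orange, 5 P2ry14-null libraries), in 4 panels by pathway and ordered by the WT mean. Tlr13, Syk, Gsdmd and Tmem173 lie at the top of their panels, with Clec4e next after Syk. The points of both genotypes overlap for every gene.

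Among the Toll-like receptors themselves, Tlr13 was the most abundant per length, followed by Tlr4, Tlr6 and Tlr2. Tlr13 (gene ID 279572, chromosome X, 106143275 to 106160493, plus strand) encodes an endosomal receptor for bacterial ribosomal RNA. Tlr13 stood at 201, 176, 198, 204 and 187 CPM in WT libraries 1 to 5 and at 188, 189.5, 175, 218 and 201 CPM in P2ry14-null libraries 1 to 5, with a fold change of 0.0085 ± 0.063 (interval -0.13 to 0.14). The groups overlapped, with the lowest and the highest library both in P2ry14-null, and their means were 193 ± 11.6 and 195 ± 16.1 CPM (SD, n = 5 each). Tlr4, the lipopolysaccharide receptor, held 36.3, 31.5, 47.3, 28.8 and 29.2 CPM in WT and 25.2, 34.1, 30.7, 33.1 and 30.9 CPM in P2ry14-null libraries 1 to 5. WT library 3 was the highest of all 10 for Tlr4, the groups overlapped, and the fold change was -0.17 ± 0.13. Without WT library 3 it was -0.028.

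The receptors of bacterial lipopeptides differed widely in level. Tlr6, which pairs with Tlr2 to bind diacylated lipopeptides, had 4.01 CPM per kb in WT, Tlr2 had 1.97, and Tlr1, which pairs with Tlr2 for triacylated lipopeptides, had 0.210. Tlr1 (gene ID 21897, chromosome 5, 64924680 to 64933589, minus strand) and Tlr6 (gene ID 21899, chromosome 5, 64952030 to 64971140, minus strand) are neighbours and close copies, and their reads may not be fully separable. Of the 50-base words of the longest Tlr1 transcript, 15.3% also occur in Tlr6. The longest identical run is 229 bases, in the coding part of both transcripts. It is printed here with 15 bases on either side, because a read inside it fits both genes. Letters are those of the GENCODE vM21 transcripts on GRCm38, 5′ to 3′, from bases 1924 to 2182 of the Tlr1 and 1637 to 1895 of the Tlr6 transcript, and capitals mark the bases that differ.
Tlr1: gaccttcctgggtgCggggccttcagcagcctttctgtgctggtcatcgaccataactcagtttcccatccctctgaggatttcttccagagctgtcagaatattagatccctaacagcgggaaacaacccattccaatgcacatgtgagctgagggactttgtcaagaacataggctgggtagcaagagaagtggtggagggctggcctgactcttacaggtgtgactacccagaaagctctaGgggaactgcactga
Tlr6: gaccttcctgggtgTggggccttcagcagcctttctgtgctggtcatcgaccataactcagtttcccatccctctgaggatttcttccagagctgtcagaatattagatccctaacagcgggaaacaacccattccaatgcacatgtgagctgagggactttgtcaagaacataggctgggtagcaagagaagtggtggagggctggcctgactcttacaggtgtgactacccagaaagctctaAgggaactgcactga
No source used here says how reads that fit several places were counted, so the levels of Tlr1 and Tlr6 are uncertain as single genes.

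Tlr1 held 0.602, 0.561, 0.794, 0.659 and 0.899 CPM in WT libraries 1 to 5 and 0.548, 2.19, 0.462, 1.03 and 0.974 CPM in P2ry14-null libraries 1 to 5. P2ry14-null library 2 was the highest of the 10 and P2ry14-null library 3 the lowest. The fold change of 0.58 ± 0.35 (interval -0.17 to 1.33) was the highest of the 39 and became 0.12 without P2ry14-null library 2. Tlr6 lay between 12.2 and 17.1 CPM over all 10 libraries, with both of these ends in P2ry14-null, and P2ry14-null library 2 was not high for it, at 13 CPM.

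Tlr7, Tlr8 and Tlr9, which like Tlr13 encode endosomal receptors, were low beside the 193 CPM of Tlr13 in WT. Tlr7 encodes a sensor of single-stranded RNA, and had means of 4.44 CPM in WT and 4.90 CPM in P2ry14-null. For Tlr8 the means were 3.82 CPM in WT and 4.63 CPM in P2ry14-null, and for Tlr9, the sensor of CpG DNA, 3.0 CPM in WT and 3.30 CPM in P2ry14-null. Tlr8 ranged from 3.22 to 5.10 CPM in WT and from 2.5 to 8.02 CPM in P2ry14-null. The highest of the 10 libraries was P2ry14-null library 2 for each of Tlr7, Tlr8 and Tlr9. Tlr3, the receptor of double-stranded RNA, had the lowest level per length of the 39, at 0.637 CPM in WT and 0.678 CPM in P2ry14-null, and overlaps an opposite-strand transcript over 7.32% of its exon bases. Their transport protein gene Unc93b1 was far more abundant, at 89.2 ± 4.67 CPM in WT and 87.0 ± 4.78 CPM in P2ry14-null, with a fold change of -0.036 ± 0.051.

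Of the lipopolysaccharide co-receptors, Cd14 had 32.3, 25.6, 23.2, 27.9 and 23.5 CPM in WT libraries 1 to 5 and 19.3, 29.9, 21.4, 22.2 and 21.5 CPM in P2ry14-null libraries 1 to 5. WT library 1 was the highest and P2ry14-null library 1 the lowest, and P2ry14-null library 2 lay above 4 of the 5 WT libraries. The fold change was -0.21 ± 0.12 (interval -0.46 to 0.043), the smallest p of the Toll-like group, and -0.32 without P2ry14-null library 2. Ly96, which encodes the MD-2 subunit that binds lipopolysaccharide next to Tlr4, was at 2.58 CPM in WT and 2.61 CPM in P2ry14-null. Per length, Cd14 stood at 15.3, Tlr4 at 6.23 and Ly96 at 2.53 CPM per kb in WT.

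The adaptors and kinases that carry the signal onwards had fold changes close to 0, all with intervals within 1.5-fold. Myd88, the adaptor of most Toll-like receptors and of the interleukin-1 receptor family, held 133, 108, 103, 108 and 106 CPM in WT and 108, 99.6, 108, 102 and 103 CPM in P2ry14-null libraries 1 to 5. WT library 1 stood above the other 9, the rest overlapped, and the fold change was -0.10 ± 0.065 (-0.034 without WT library 1). In the annotation, 11.3% of the Myd88 exon bases lie over exons of Acaa1a on the opposite strand, and whether the counting used strand was not stated in the sources used here. Tirap, which bridges Tlr2 and Tlr4 to Myd88, was at 33.2 CPM in WT and 34.9 CPM in P2ry14-null, and Ticam1, which encodes TRIF, at 16.1 CPM in WT and 15.9 CPM in P2ry14-null. Per length, Myd88 exceeded Ticam1 in every library, with 43.4 against 5.39 CPM per kb as WT means. The kinase genes Irak1 and Irak4 had fold changes of 0.017 ± 0.042 and 0.014 ± 0.040, with intervals from -0.074 to 0.11 and from -0.073 to 0.10. Irak2 was at -0.038 ± 0.059 and Irak3, which encodes the inhibitory family member IRAK-M, at -0.072 ± 0.059. Of the 19 Toll-like pathway genes, 8 lay below 0 and 11 above, with a median of 0.014 and 0 at an unadjusted p under 0.05. The sign of that median changed without P2ry14-null library 2, 4 or 5 or WT library 2 or 5, and was lowest without WT library 2, at -0.010; without P2ry14-null library 2 it was -0.0088.

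In the C-type lectin group, the genes with the largest fold changes sit next to one another. Clec4n, Clec4d and Clec4e encode Dectin-2, MCL and Mincle, receptors of fungal mannans and of mycobacterial and fungal glycolipids that signal through the Fc receptor γ chain and Syk. In the table's mm10 coordinates they lie on chromosome 6 in that order. Clec4n (56620) spans 123229843 to 123247024 and Clec4d (17474) spans 123262107 to 123275268, both plus strand, while Clec4e (56619) spans 123281789 to 123289871, minus strand. The gaps are 15.1 kb from Clec4n to Clec4d and 6.52 kb from Clec4d to Clec4e. Clec4d and Clec4e therefore face each other tail to tail.

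Clec4e stood at 340.4, 293, 408, 324 and 329 CPM in WT libraries 1 to 5 and at 262, 211, 333, 309 and 243 CPM in P2ry14-null libraries 1 to 5. P2ry14-null libraries 1, 2 and 5 were below all WT libraries, while 3 and 4 were within the WT range. Means were 339 ± 42.5 and 271 ± 49.3 CPM (SD, n = 5 each), a fold change of -0.32 ± 0.12 (interval -0.57 to -0.066). Clec4d stood at 14.4, 10.7, 10.7, 14.4 and 9.80 CPM in WT libraries 1 to 5 and at 8.45, 7.97, 9.88, 11.7 and 8.40 CPM in P2ry14-null libraries 1 to 5. Here P2ry14-null libraries 1, 2 and 5 were again below all WT libraries and library 4 was inside the WT range, as library 3 was by a small margin. The fold change was -0.37 ± 0.13 (interval -0.66 to -0.086). Clec4n was near the low end of the group, at 3.14, 3.04, 3.02, 2.19 and 3.13 CPM in WT and 2.28, 3.04, 2.18, 2.49 and 1.79 CPM in P2ry14-null libraries 1 to 5. WT library 4 lay with the P2ry14-null values and P2ry14-null library 2 with the WT values, and the fold change was -0.30 ± 0.14.

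Leaving out any 1 library kept these 3 genes below 0, from -0.40 to -0.24 for Clec4e, from -0.47 to -0.29 for Clec4d and from -0.41 to -0.21 for Clec4n, and none passed the adjusted threshold in any of these fits. Clec4d kept an unadjusted edgeR p under 0.05 in each of them, and Clec4e in all but the fit without WT library 3. Clec4n had such a p only without P2ry14-null library 2 or WT library 4. The other 6 genes of the cluster lay on both sides of 0. Clec4b1, scarce at 0.410 CPM in WT and 0.299 CPM in P2ry14-null, was lowest at -0.41 ± 0.36, and Clec4a4 was at -0.023 ± 0.39. Clec4a2, which encodes the inhibitory receptor DCIR and lies upstream of Clec4n on the same strand, was at 125 CPM in WT and 129 CPM in P2ry14-null, with a fold change of 0.038 ± 0.067 (interval -0.11 to 0.18). Between Clec4a2 and Clec4n, Clec4b2 was at -0.052 ± 0.17. Clec4a1 and Clec4a3, at the far end of the cluster, had fold changes of 0.028 ± 0.23 and 0.11 ± 0.22. The difference in fold change between neighbours was not tested.

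All 5 heat shock genes looked at had fold changes below 0, with a median of -0.55, and 0 passed the threshold. Their summed level varied between libraries: 928, 764, 782, 673 and 854 CPM in WT libraries 1 to 5 and 455, 531, 815, 624 and 372 CPM in P2ry14-null libraries 1 to 5. In P2ry14-null, library 3 had the most of these transcripts and the most Clec4e, while library 4 had the most Clec4d and library 2 the most Clec4n. Libraries 3 and 4 were the highest 2 of that group for these transcripts, Clec4e and Clec4d, but not for Clec4n. In WT, library 1 had the most of these transcripts, of Clec4d and of Clec4n, while library 3 had the most Clec4e. The highest 2 WT libraries were 1 and 5 for these transcripts and Clec4n, 1 and 3 for Clec4e, and 1 and 4 for Clec4d. The part of the heat shock transcripts in the lectin values was not tested.

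**Figure D3:**
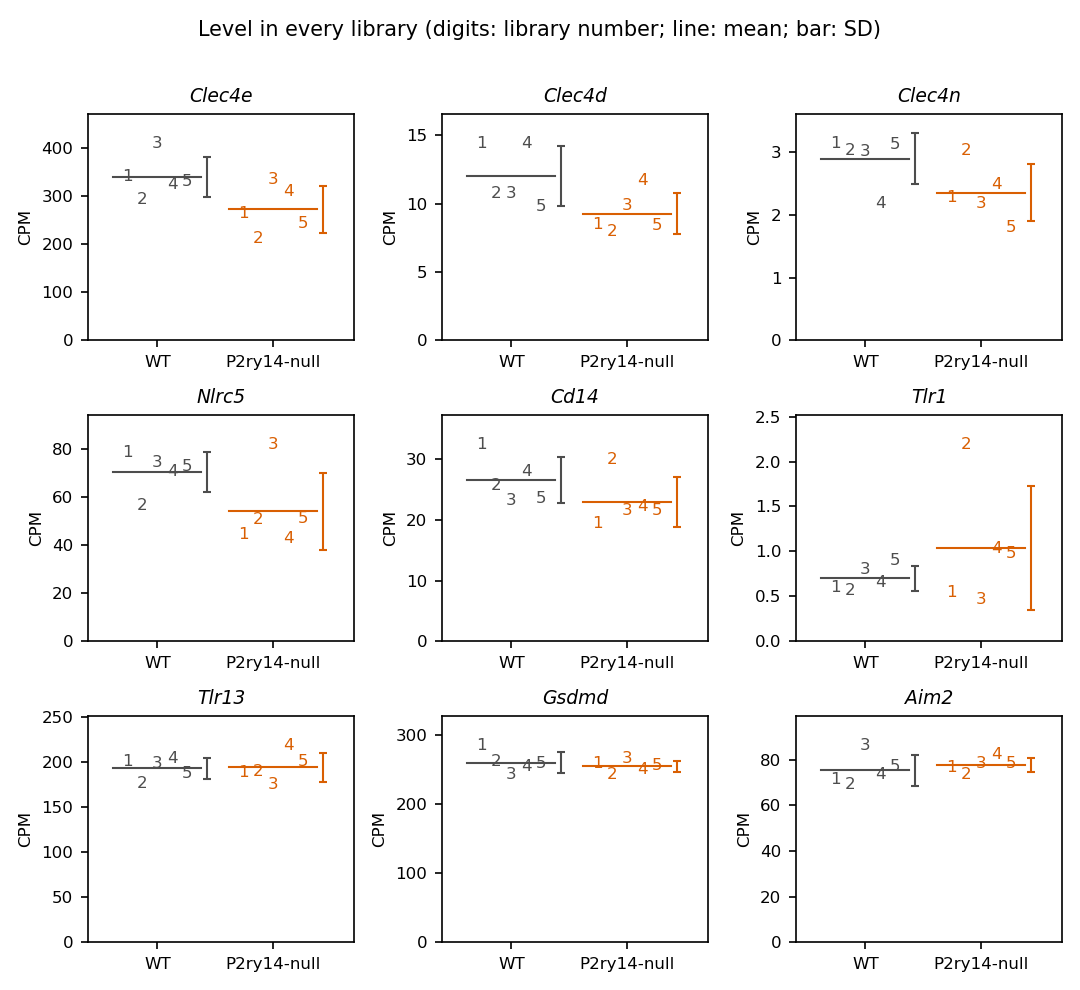
CPM of 9 genes in every library (vertical axis from 0; digits are the library number within its genotype; lines, means; bars, SD, n = 5). P2ry14-null libraries 1, 2 and 5 lie below all WT libraries for Clec4e and Clec4d, P2ry14-null library 3 is the highest of all 10 for Nlrc5, and P2ry14-null library 2 is the highest for Tlr1, while Tlr13, Gsdmd and Aim2 overlap throughout.

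The 250 bases before the start of Clec4e and of Clec4d are shown because these adjacent genes had the smallest p of the lectins. Both come from RefSeq on GRCm38.p6, 5′ to 3′ on each gene's own strand, chr6:123289872-123290121 (minus) and chr6:123261857-123262106 (plus). Capitals mark a match, on either strand, to the C/EBP motif TTNNGCAA.
Clec4e: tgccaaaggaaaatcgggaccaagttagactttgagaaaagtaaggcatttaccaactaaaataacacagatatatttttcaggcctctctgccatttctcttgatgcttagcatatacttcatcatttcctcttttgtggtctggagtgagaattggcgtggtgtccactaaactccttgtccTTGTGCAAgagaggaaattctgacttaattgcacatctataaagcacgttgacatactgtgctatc
Clec4d: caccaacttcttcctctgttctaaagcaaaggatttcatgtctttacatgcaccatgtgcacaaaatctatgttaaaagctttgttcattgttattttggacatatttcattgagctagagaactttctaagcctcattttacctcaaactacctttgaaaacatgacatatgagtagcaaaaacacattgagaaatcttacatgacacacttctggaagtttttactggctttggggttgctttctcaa
Motifs of 3 kinds were searched on both strands: C/EBP, the interferon-stimulated element ISRE (TTTC, any 2 bases, TTTC), and the NF-kB motif. Clec4e held 1 match, to C/EBP, from 66 to 59 bases before the start, with no other motif overlapping it, and Clec4d held 0. The C/EBP motif occurs in 9.56% of all 32851 promoter windows of this length, NF-kB in 7.25% and ISRE in 2.98%. Windows were at hand for 30 of the 39 genes, of which 6 held C/EBP, 5 NF-kB (Casp4, Irak1, Nlrp3, Tlr2 and Tlr3) and 2 ISRE (Myd88 and Tlr6). A gene was counted if any of its windows matched, and some genes have several windows. These counts of genes therefore differ in unit from the shares of windows. A match is a description of letters and not of binding.

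Clec7a, which encodes the β-glucan receptor Dectin-1, ranged from 62.2 to 75.3 CPM in WT and from 60.9 to 94.6 CPM in P2ry14-null, the upper end being P2ry14-null library 2. Its fold change was 0.052 ± 0.11 and -0.070 without that library. Syk, the kinase downstream of these receptors, stood at 1125, 1141, 1117, 1133 and 1186 CPM in WT libraries 1 to 5 and at 1094, 1059.7, 1158, 1109.7 and 1016 CPM in P2ry14-null libraries 1 to 5. P2ry14-null libraries 1, 2, 4 and 5 lay below all WT libraries and library 3 within the WT range, and the fold change was -0.068 ± 0.047 (interval -0.17 to 0.034). Card9, the adaptor that links Syk to NF-kB, had 86.7 ± 4.14 CPM in WT and 85.1 ± 1.74 CPM in P2ry14-null (SD, n = 5 each), a fold change of -0.026 ± 0.043. Of the 7 genes, 5 lay below 0, 2 lay above, and 2 had an unadjusted p under 0.05, beside 4.13% of all genes tested. Their median was -0.068, and leaving out P2ry14-null library 5 gave -0.044.

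Among the 5 lectin receptors, Clec4e led per length. WT means were 68.3 ± 8.56 CPM per kb for Clec4e, 42.8 ± 2.29 for Clec4a2, 26.2 ± 2.15 for Clec7a, 7.51 ± 1.38 for Clec4d and 2.04 ± 0.285 for Clec4n (SD, n = 5). No value of any of the 5 receptors overlapped a neighbour in this order in WT libraries.

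Among the 8 inflammasome genes chosen, Gsdmd and Aim2 stood high, and the sensors Nlrp3, Mefv and Nlrc4 were low. Aim2, the sensor of cytosolic double-stranded DNA, stood at 71.3, 68.9, 86.0, 73.3 and 76.9 CPM in WT libraries 1 to 5 and at 76.5, 73.6, 78.3, 82.1 and 78.2 CPM in P2ry14-null libraries 1 to 5. All P2ry14-null libraries lay inside the WT range, and the fold change was 0.046 ± 0.059 (interval -0.082 to 0.17). Nlrp3, the sensor of potassium efflux and membrane damage, had 4.41, 3.89, 3.87, 7.46 and 4.12 CPM in WT and 3.23, 5.79, 3.36, 4.82 and 4.90 CPM in P2ry14-null libraries 1 to 5. WT library 4 was the highest, and the fold change of -0.10 ± 0.20 changed sign without it, to 0.13. Mefv, which encodes pyrin, was at 3.59 CPM in WT and 3.89 CPM in P2ry14-null, and Nlrc4, which responds to flagellin and secretion system proteins through Naip proteins, at 1.09 CPM in WT and 1.04 CPM in P2ry14-null. In WT, Aim2 had 21.5 CPM per kb, beside 1.17 for Nlrp3, 1.10 for Mefv and 0.226 for Nlrc4, so Aim2 was the leading sensor transcript of the 4.

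Pycard, which encodes the adaptor ASC, held 50.6, 44.8, 40.9, 42.8 and 45.5 CPM in WT libraries 1 to 5 and 45.8, 45.3, 42.6, 42.5 and 39.5 CPM in P2ry14-null libraries 1 to 5, a fold change of -0.058 ± 0.061 with overlapping groups. An opposite-strand transcript, Gm45205, covers 12.8% of its exon bases. Casp1, the protease of the canonical inflammasome, held 38, 27.5, 30.0, 29.9 and 28.2 CPM in WT and 26.4, 27.8, 30.8, 29.1 and 28.9 CPM in P2ry14-null libraries 1 to 5. WT library 1 stood above the other 9 and the rest overlapped, with a fold change of -0.10 ± 0.081, and -0.015 without WT library 1. Casp4, the caspase-11 gene that senses intracellular lipopolysaccharide, held 8.43, 5.56, 6.13, 7.09 and 5.85 CPM in WT and 5.91, 6.88, 6.24, 5.66 and 6.29 CPM in P2ry14-null libraries 1 to 5. WT library 1 was again the highest, and the fold change was -0.093 ± 0.11 (0.0094 without that library). The same library was the highest of the 10 for 13 of the 39 genes, among them Pycard, Gsdmd, Myd88 and Cd14.

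Gsdmd, the gene of the pore-forming gasdermin D, was the most abundant per length of the 8 inflammasome genes chosen. Gsdmd held 284, 261, 242, 254 and 258 CPM in WT libraries 1 to 5 and 259, 243, 265, 249 and 255 CPM in P2ry14-null libraries 1 to 5. Both groups overlapped, with means of 259.6 ± 15.3 and 254 ± 8.52 CPM and a fold change of -0.031 ± 0.049 (interval -0.14 to 0.076). Of the 8 inflammasome genes, 6 lay below 0 and 2 above, with a median of -0.054 and 0 at an unadjusted p under 0.05. The median moved to -0.0045 without WT library 1, to -0.025 without P2ry14-null library 1 and to -0.026 without P2ry14-null library 3. It was -0.084 without P2ry14-null library 2 and -0.085 without WT library 2.

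In the last group, the gene with the largest fold change was Nlrc5, the interferon-induced transactivator of class I antigen presentation genes (gene ID 434341, chromosome 8, 94434354 to 94527272, plus strand). Nlrc5 stood at 78.3, 56.4, 74.4, 70.4 and 72.7 CPM in WT libraries 1 to 5 and at 44.2, 50.6, 81.7, 42.7 and 51.0 CPM in P2ry14-null libraries 1 to 5. P2ry14-null libraries 1, 2, 4 and 5 lay below all WT libraries, while P2ry14-null library 3 lay above all of them. The fold change was -0.38 ± 0.16 (interval -0.72 to -0.046), and without P2ry14-null library 3 it was -0.57 (edgeR adjusted p = 0.113), the smallest adjusted p of a member in any fit. That library was also the highest of its group for the summed heat shock genes and for Clec4e, but not for Clec4d or Clec4n. The unadjusted edgeR p of Nlrc5 was no longer under 0.05 without P2ry14-null library 1, 4 or 5. The same held without WT library 1, 3 or 5.

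Of the peptidoglycan sensors, Nod1, which binds fragments with diaminopimelic acid, held 43.9, 41.6, 38.4, 43.2 and 40.2 CPM in WT libraries 1 to 5 and 36.4, 38.4, 38.9, 36.2 and 42.4 CPM in P2ry14-null libraries 1 to 5. P2ry14-null libraries 1 and 4 lay below all WT libraries, library 2 was level with the lowest of them, and libraries 3 and 5 lay within the WT range. The fold change was -0.11 ± 0.055 (interval -0.23 to 0.011) and stayed below 0 with each single library left out, from -0.14 to -0.086. Nod2, which binds muramyl dipeptide, had 38.6 ± 1.84 CPM in WT and 39.5 ± 1.23 CPM in P2ry14-null (SD, n = 5 each), with a fold change of 0.033 ± 0.045. Tmem173, which encodes STING, the adaptor of cytosolic DNA sensing, held 53.3, 49.9, 49.5, 43.1 and 49.2 CPM in WT and 52.5, 45.1, 43.4, 45.2 and 47.8 CPM in P2ry14-null libraries 1 to 5, a fold change of -0.067 ± 0.064 with groups that overlapped. Mavs, the mitochondrial adaptor of RNA helicase sensors, held 9.16, 10.2, 9.35, 9.18 and 9.78 CPM in WT and 9.60, 11.5, 9.86, 9.46 and 9.77 CPM in P2ry14-null libraries 1 to 5. P2ry14-null library 2 was the highest for Mavs, and the fold change was 0.073 ± 0.066 (0.021 without it). Of the 5 genes, 3 lay below 0 and 2 above, with a median of -0.067. At an unadjusted p under 0.05 there was 1, beside 4.13% of all genes tested. The median was -0.032 without P2ry14-null library 3 and -0.035 without WT library 1.

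Library 2 of P2ry14-null was the highest of the 10 libraries for 10 of the 39 genes. Its level over the mean of the other 9 libraries was 3.01 for Tlr1, 2.11 for Tlr8, 1.72 for Tlr7, 1.67 for Mefv and 1.5 for Tlr9, its 5 highest ratios. At the other end the ratio was 0.667 for Clec4e and 0.728 for Clec4d, while Syk, Gsdmd and Tlr13 had 0.946, 0.940 and 0.974. Over the marker lists, the summed level in this library was 4.56 times the mean of the other 9 for 7 epithelial genes, 3.39 times for 10 dendritic cell and class II genes, 2.58 times for 10 alveolar macrophage genes, 1.81 times for 7 T and NK cell genes and 1.79 times for 6 B cell genes. The 10 monocyte and interstitial macrophage genes had 1.03, a sum in which Adgre1 and Csf1r, both high in all libraries, take the largest share, and C1qa alone was at 14.1 CPM in this library against 1.31 to 3.31 in the other 9. The 10 eosinophil genes were at 0.963. Chil3 took the largest share of the alveolar macrophage sum in this library, at 1520 CPM against 235 to 524 in the other 9. Car4 of that list was at 590 CPM against 404 to 562. Zbtb46 and Itgae of the dendritic cell list, at 1.17 and 26.8 CPM, lay within the range of the other 9. Leaving this library out took the fold change of Tlr1 from 0.58 to 0.12, of Tlr8 from 0.28 to -0.0071, of Tlr7 from 0.15 to -0.050, of Tlr9 from 0.14 to 0.0012 and of Mefv from 0.12 to -0.065. Tlr2 went from 0.025 to -0.11, Nlrc4 from -0.049 to -0.18, Ticam1 from -0.022 to -0.048 and Nlrp3 from -0.10 to -0.22. Without it, Cd14, Clec4e, Clec4n, Clec4d and Nlrc5 had an unadjusted p under 0.05, beside 4.08% of all genes tested, and 0 passed after adjustment. The part of other cells in these values was not tested.

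**Figure D4:**
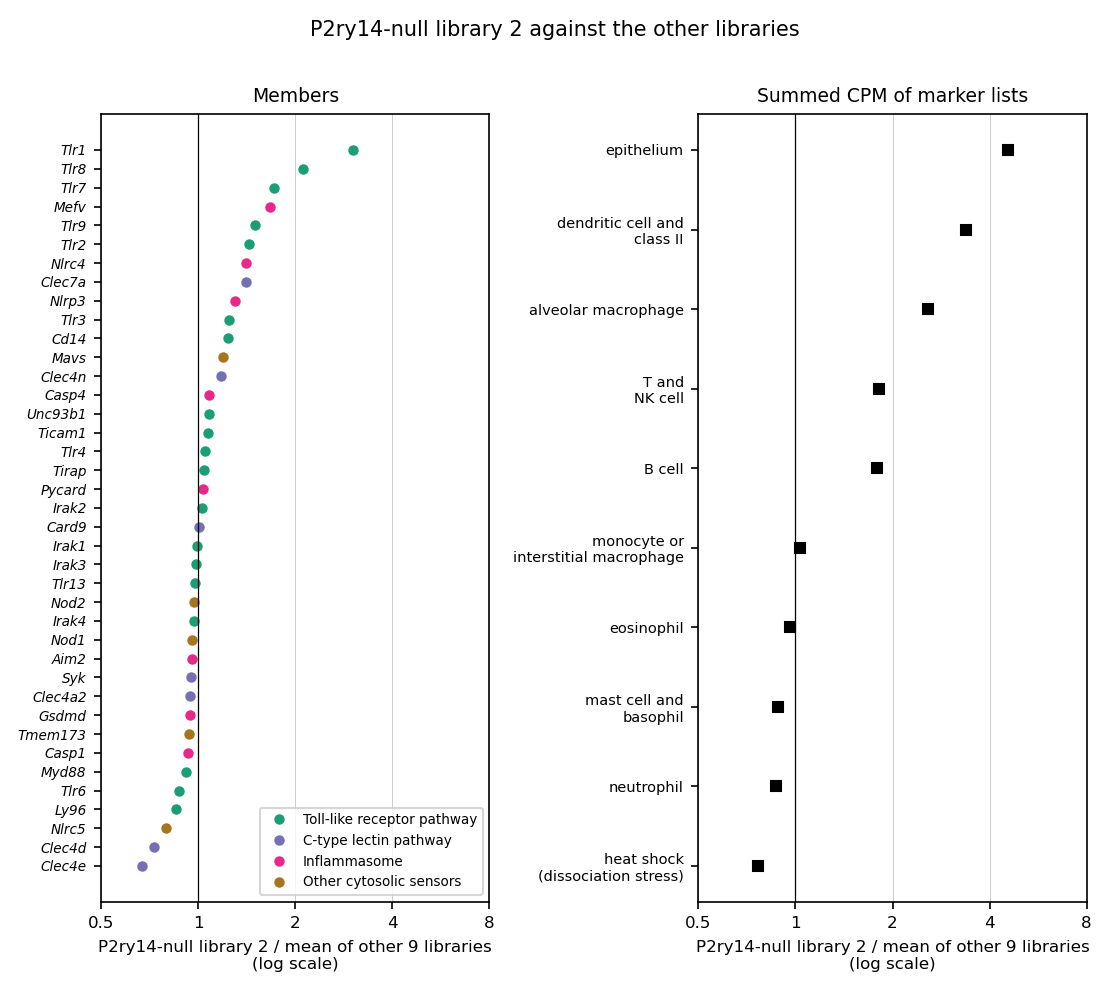
Level in P2ry14-null library 2 over the mean of the other 9 libraries (horizontal axes, log scale), for each of the 39 genes by pathway (left, circles) and for the summed CPM of each marker list (right, squares). Tlr1 and Tlr8 lie above a ratio of 2, and the epithelial, class II and alveolar macrophage lists lie above it as well, while most members lie near 1.

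Neutrophils also express many of these genes. The summed level of 10 neutrophil markers was 3696 to 4636 CPM in WT and 3692 to 5387 CPM in P2ry14-null, mostly Retnlg, whose WT mean was 3782 CPM. Elane was at 0 reads in every library, and Ly6g had means of 1.24 CPM in WT and 1.65 CPM in P2ry14-null. Cxcr2 and S100a9 were higher, with WT means of 133 and 109 CPM and P2ry14-null means of 130 and 122 CPM. Of the 7 neutrophil markers that were tested, 1 had a fold change below 0, and their median was 0.12. Sums of the 7 mast cell and basophil genes were 56.7 to 65.8 CPM in WT and 46.1 to 60.4 CPM in P2ry14-null, mostly Gata2 and Kit, with WT means of 46.8 and 11.5 CPM. All 6 of the mast cell and basophil genes that were tested had fold changes below 0, with a median of -0.35, and 0 passed the threshold. The mast cell protease gene Cpa3 had the lowest, -0.67 ± 0.19, at 0.57 CPM in WT and 0.35 CPM in P2ry14-null. The part of neutrophils, mast cells and basophils in the values of the lectin genes was not tested.

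Around the 39 genes, 88 further symbols of the same pathways were listed, of which 86 were in the table (Dfna5 and Cgas were not, and the symbols Gsdme and Mb21d1 of the same genes were) and 84 were tested. Again 0 passed in edgeR or DESeq2, 41 lay below 0 and 43 above, and the median was 0.0029. Of the 84 tested, 4 (Clec9a, Gsdme, Tnfaip3 and Ripk2) had an unadjusted edgeR p under 0.05, beside 4.13% of all genes tested. In the Toll-like group (24 tested), the smallest p belonged to the lipopolysaccharide-binding protein gene Lbp (-0.27 ± 0.15; 1.14 CPM in WT and 0.948 CPM in P2ry14-null) and the receptor chaperone gene Hsp90b1 (-0.094 ± 0.058). In the lectin group (18 tested) they belonged to Clec9a (0.25 ± 0.11; 1.75 CPM in WT and 2.07 CPM in P2ry14-null) and Cd209a (0.69 ± 0.34), the latter highest in P2ry14-null library 2 at 2.71 CPM. In the inflammasome group (21 tested), the gasdermin E gene Gsdme was at 0.16 ± 0.068 and Il18bp, the decoy receptor of interleukin-18, at -0.18 ± 0.085. In the cytosolic group (21 tested), Tnfaip3, which encodes the NF-kB inhibitor A20, was at -0.20 ± 0.067 (4744 CPM in WT and 4141 CPM in P2ry14-null), and Ripk2, the kinase of Nod1 and Nod2, at -0.17 ± 0.064 (61.1 CPM in WT and 54.4 CPM in P2ry14-null). The edgeR adjusted p of these 8 genes was 0.999 in each case. The inflammasome substrates Il1b and Il18, named after their values were seen, stood far apart, with WT means of 1182 and 0.269 CPM.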

How the data were processed

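RNA of sorted lung eosinophils was sequenced in 5 P2ry14-null and 5 WT libraries; groups and numbers come from the sample titles. The deposited table holds raw counts, whole numbers of reads for each gene, with mm10 coordinates per the file headers. The submitters' processing notes name STAR 2.5, featureCounts 1.5.0-p1 of Subread and DESeq2. Annotation release, strandedness and handling of multiply mapping reads were not given in the sources used here. No 2 libraries of a group agreed within sampling noise (chi-square per gene at least 23.1). No label states that libraries are separate mice, so p-values reflect only how far these samples spread, which could be technical.

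Counts were fitted with edgeR 4.0.16 in R 4.3.3 (TMM, default low-count filter, quasi-likelihood test of genotype), adjusted over 15586 genes at 0.05, and tested first on simulated data. DESeq2 1.42.0, other size factors, no filter, a replicate block and each library left out were alternatives. The SE is the fold change over the square root of F. With 67161968 to 185124080 reads per library, every member had 33 or more reads in each. Exon lengths, overlaps and shared 50-base words came from GENCODE vM21 (GRCm38, the assembly of mm10), matched by gene identifier for 83.7% of tested genes. Of the 39 members, 25 share no 50-base word with another gene, 8 share over 5% (Tlr1, Tlr6, Myd88, Tirap, Irak2, Irak4, Clec4a2 and Pycard), and 10 overlap exons of another gene. Members and lists were chosen with earlier results of these data known. Values in every library are given for the 4 members of each pathway with the smallest p and for the one with the highest level per length; other genes in the text were named by pathway role, as list members with the smallest p, or as stated.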

Additional observations from a re-analysis of the deposited data

Results flagged for a closer look

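In 8 of the 78 combinations of a gene and a genotype, 1 library stood far from the other 4, where chance flags about 1 in 20 of such groups (3.9 of 78). Among Toll-like genes these were Tlr8 at 5.10 CPM in WT library 3, Cd14 at 29.9 CPM in P2ry14-null library 2 and Myd88 at 133 CPM in WT library 1. Clec4n was low in WT library 4, at 2.19 CPM. Nlrp3 was high in WT library 4, at 7.46 CPM, and Casp1 was high in WT library 1, at 38 CPM. Nlrc5 was high in P2ry14-null library 3, at 81.7 CPM, and Mavs was high in P2ry14-null library 2, at 11.5 CPM.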

How the results depend on the processing

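In each of the 14 alternative fits 0 of the 39 genes passed the threshold, and the smallest adjusted p of a member was 0.113. The number of genes called in the whole table was 6, 19 in DESeq2 and 3 to 5 with single libraries left out. Clec4e, Clec4d, Clec4n, Nlrc5 and 19 other genes kept their direction throughout, 23 in all. Log2 fold changes of the other 16 changed sign in at least 1 fit, and their ranges with single libraries left out were: Casp4 -0.15 to 0.0094, Clec4a2 -0.022 to 0.083, Clec7a -0.070 to 0.10, Gsdmd -0.055 to 0.0030, Irak1 -0.0077 to 0.032, Irak2 -0.057 to 0.0062, Ly96 -0.072 to 0.15, Mefv -0.065 to 0.26, Nlrc4 -0.18 to 0.084, Nlrp3 -0.22 to 0.13, Ticam1 -0.048 to 0.00058, Tlr13 -0.036 to 0.052, Tlr2 -0.11 to 0.14, Tlr6 -0.11 to 0.018, Tlr7 -0.050 to 0.31, Tlr8 -0.0071 to 0.43. Without the low-count filter Tlr13 was at -0.0021. With the replicate number as a block, Tlr2 was at -0.015 and 6 genes were called in all, as without it; the numbers did not pair the libraries (deviations of equal numbers correlated at -0.093 to 0.094, and 2 of 10 libraries were closest to their own number), so the block is given here only. The cause of these changes was not tested. Fold changes of the least abundant members, Tlr1, Tlr3 and Nlrc4, rest on the fewest reads, from 33 per library.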
